A study of Homo sapiens with 6 samples.

Results

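MHC class I antigen presentation was followed through 9 genes of the HCT116 count table. They are the class I heavy chain genes HLA-B, HLA-C, HLA-E and HLA-F, the light chain gene B2M, the peptide transporter genes TAP1 and TAP2, the loading factor gene TAPBP and the transactivator gene NLRC5. The rule gives the genes by name, and all 9 were found among the 60240 rows of the table through the stable part of the Ensembl identifier. HCT116 is a colorectal carcinoma cell line. RNA-seq was performed on 3 libraries of wild-type cells (WT) and 3 libraries of LSD1 knockout cells (LSD1 KO), to ask how the transcriptome changes when LSD1, a histone demethylase that acts on H3K4me1, is lost. Apart from the making of the knockout, no treatment is named for either group. The knockout was made with CRISPR/Cas9 in exon 1 by transient transfection and puromycin selection, followed by expansion of single clones. The methods name no such steps for the WT cells. The methods give biological replicates for each experiment, unless specified otherwise, without saying what a replicate was for RNA-seq. The labels do not say how many clones the LSD1 KO libraries stand for, nor whether the 3 libraries of a group came from separate cultures. The p-values thus measure only the spread between these libraries, which may be technical.

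The libraries held between 25379279 and 29186963 counts. KDM1A, the gene of LSD1, was at 231, 224 and 214 CPM (counts scaled to library size with TMM factors) in WT replicates 1, 2 and 3. In the LSD1 KO replicates it had 29.9, 27.6 and 27.8 CPM, and edgeR gave a log2 fold change of -2.97 with a q value of 0.000451. Of 6 epithelial markers, EPCAM, KRT8, KRT18, KRT19 and CDH1 were read in every library, and VIL1 had at most 8 counts. The summed level of the 6 was 2030 to 3800 CPM in WT and 2410 to 3140 CPM in LSD1 KO. EPCAM was at 191, 248 and 173 CPM in WT and at 134, 77.6 and 101 CPM in LSD1 KO (log2 fold change -0.97, q value 0.668 from edgeR and 0.0788 with the block). DESeq2 gave EPCAM a q value of 0.0508 without the block and 0.162 with it. KRT18 was at 396, 667 and 460 against 375, 348 and 354 CPM. In both genes the groups did not overlap, as in 7.74% of all genes. KRT19 went the other way in all 3 pairs, at 548, 1160 and 789 CPM in WT. In LSD1 KO it was at 905, 1460 and 966 CPM (q value 0.123 from edgeR and 0.00373 from DESeq2, both with the block). Of 9 leukocyte markers, CD3E and CD2 had 0 counts, PTPRC had 3 counts in 1 library, and their summed level was 2.38 to 4.21 CPM in WT and 5.08 to 10.9 CPM in LSD1 KO. Of 6 fibroblast markers, LUM had 0 counts, and the summed level, most of it COL1A1, was 20.5 to 24.2 CPM in WT and 30.3 to 34.4 CPM in LSD1 KO. Because libraries that share a replicate number deviated together, each comparison was also made with that number as a block. The labels do not say whether WT and LSD1 KO libraries of the same number were prepared together. The pairs named below thus rest on the numbers and on these same data.

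MHC class I molecules show short peptides from inside the cell to CD8+ T cells. Each molecule is a heavy chain held by beta-2-microglobulin, and it is filled in the endoplasmic reticulum, where the TAP transporter brings in peptides made by the proteasome and tapasin holds the empty molecule beside it. HLA-B and HLA-C encode classical heavy chains, whereas HLA-E presents peptides from the leader sequences of other heavy chains to NK cell receptors and HLA-F is a further non-classical chain. NLRC5 is the transactivator of the pathway: it joins the RFX, CREB/ATF and NF-Y factors on the S, X and Y boxes of class I promoters, and interferon acts on the same genes through a separate response element. Loss of class I genes is a known route by which colorectal tumors, in particular those with mismatch repair defects, evade T cells.

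Of the 9 genes, 7 lie on chromosome 6 (positions from RefSeq, GRCh38.p14). HLA-F (ENSG00000204642) is at chr6:29723434-29738532, HLA-E (ENSG00000204592) at chr6:30489509-30494194, HLA-C (ENSG00000204525) at chr6:31268749-31272092 and HLA-B (ENSG00000234745) at chr6:31353875-31357179. TAP2 (ENSG00000204267) is at chr6:32821831-32838739, TAP1 (ENSG00000168394) at chr6:32845209-32853704 and TAPBP (ENSG00000231925) at chr6:33299694-33314078. B2M (ENSG00000166710) is at chr15:44711517-44718145 and NLRC5 (ENSG00000140853) at chr16:56989557-57083520, outside this cluster.

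The promoters are shown because they carry the sites through which these genes share regulators. RefSeq promoter entries (GRCh38.p14) were matched for 7 of the 9 genes, all except HLA-E and NLRC5, and the 250 bases before the annotated start are given for the 3 heavy chain genes, B2M and the upstream start of TAP1. Capitals mark the letters of 4 motifs searched on both strands. These are the core of the interferon-stimulated response element (GAAA and GAAA with 2 bases between them), the core of the X2 box bound by CREB/ATF factors (TGACGC), the CCAAT box bound by NF-Y, which is also the core of the Y box, and an NF-kappaB site of enhancer A (GGGGATTCC). The letters come from the reference genome and not from the HCT116 alleles.
HLA-B (chr6:31357180-31357429, minus strand): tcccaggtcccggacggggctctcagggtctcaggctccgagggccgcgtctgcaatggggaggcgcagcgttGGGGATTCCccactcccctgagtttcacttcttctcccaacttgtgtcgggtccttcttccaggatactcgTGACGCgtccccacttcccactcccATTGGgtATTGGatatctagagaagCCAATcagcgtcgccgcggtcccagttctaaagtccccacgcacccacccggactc
HLA-C (chr6:31272093-31272342, minus strand): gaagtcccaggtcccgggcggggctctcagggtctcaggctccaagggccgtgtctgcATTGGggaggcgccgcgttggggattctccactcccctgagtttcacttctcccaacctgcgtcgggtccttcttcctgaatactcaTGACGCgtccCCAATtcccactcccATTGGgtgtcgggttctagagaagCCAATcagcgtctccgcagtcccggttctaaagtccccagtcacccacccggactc
HLA-F (chr6:29723184-29723433, plus strand): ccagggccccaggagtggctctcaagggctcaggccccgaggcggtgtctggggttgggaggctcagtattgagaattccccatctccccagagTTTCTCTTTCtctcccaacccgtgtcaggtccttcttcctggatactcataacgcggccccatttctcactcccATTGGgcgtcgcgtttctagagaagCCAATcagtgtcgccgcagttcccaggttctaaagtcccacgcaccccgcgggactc
B2M (chr15:44711267-44711516, plus strand): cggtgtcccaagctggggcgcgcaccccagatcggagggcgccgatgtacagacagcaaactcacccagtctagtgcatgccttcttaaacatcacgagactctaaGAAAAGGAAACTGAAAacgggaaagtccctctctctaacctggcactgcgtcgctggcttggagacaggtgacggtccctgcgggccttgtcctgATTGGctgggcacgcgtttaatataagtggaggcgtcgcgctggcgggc
TAP1 (chr6:32853705-32853954, minus strand): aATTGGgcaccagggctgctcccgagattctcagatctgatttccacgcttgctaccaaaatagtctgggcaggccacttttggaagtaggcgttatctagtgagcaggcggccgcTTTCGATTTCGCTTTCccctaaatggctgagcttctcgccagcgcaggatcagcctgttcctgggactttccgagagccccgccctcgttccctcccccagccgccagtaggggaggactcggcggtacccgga

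HLA-B and HLA-C carried TGACGC at -106 and -105 from the start, with the CCAAT letters on the minus strand at -81 and -80 and on the plus strand at -56 in both. HLA-F had the CCAAT letters at nearly the same places, -82 and -57, without TGACGC. The response element core was matched at -156 in HLA-F, at -144 and -138 in B2M and at -134 and -128 in TAP1, where each pair of matches overlapped. It was also matched at -58 in TAP2 and at -20 and -14 in TAPBP, and TAP2 carried TGACGC at -35. The enhancer A letters were matched in HLA-B alone of the 7 genes, at -177. Of the 35116 promoter entries of the same 250 bases, 3.02% held the response element core, 7.67% held TGACGC, 32% held CCAAT and 0.253% held GGGGATTCC. A match of letters is a description and not a measured binding site, and a missing match to these exact letters does not show that a site is absent. TAP1 starts at position 32853704 of chromosome 6 on the minus strand and PSMB9, an immunoproteasome subunit gene, starts at position 32854192 on the plus strand, so the printed TAP1 sequence lies between the divergent pair.

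**Figure D1:**
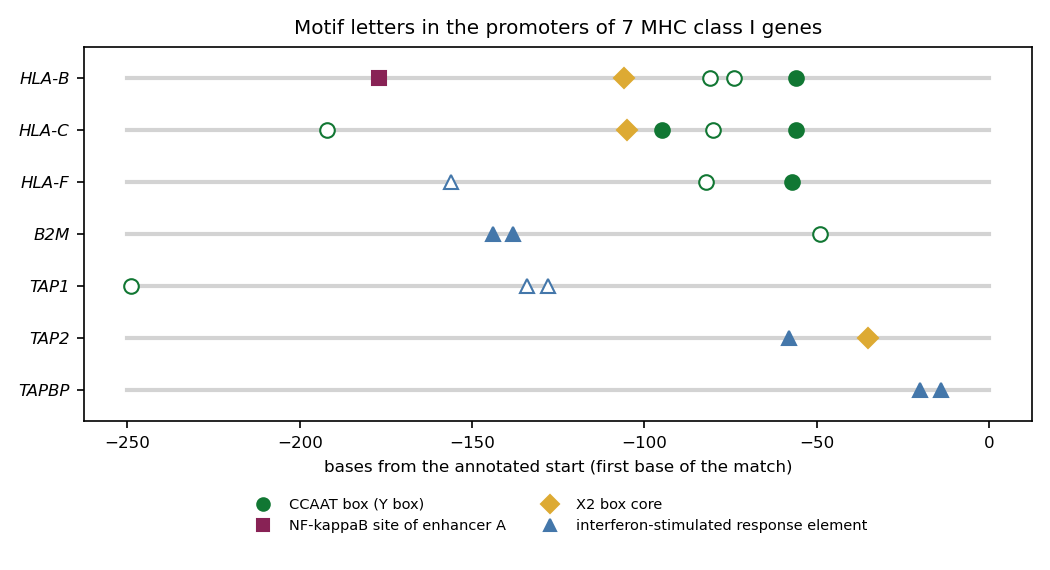
Motif letters in the 250 bases before the start of 7 MHC class I genes, drawn by distance from the start in bases. Filled symbols are matches on the strand of the gene and open symbols are matches on the other strand, and HLA-B and HLA-C share the X2 core at -106 and -105.

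The class I genes were read at very different levels. Per kilobase of the canonical transcript (GENCODE v44lift37), B2M was highest in WT cells with 340 ± 56.3 CPM per kilobase (SD, n = 3 libraries), followed by HLA-C with 233 ± 76.4 and HLA-B with 160 ± 65.8. HLA-E had 55 ± 15.3 CPM per kilobase, TAPBP 24.6 ± 1, TAP1 19.0 ± 0.375, TAP2 12.7 ± 1.91, HLA-F 9.29 ± 5.25 and NLRC5 1.41 ± 0.304. In LSD1 KO cells the same order held, from 383 ± 109 CPM per kilobase for B2M to 1.52 ± 0.299 for NLRC5. The WT ranges of B2M and HLA-C, of HLA-C and HLA-B, and of TAP2 and HLA-F overlapped. Within single libraries, B2M was above HLA-C and HLA-C above HLA-B in 6 of 6 libraries, and TAP2 was above HLA-F in 4 of 6. Class I heavy chain genes are near-identical in part, and Salmon divides shared reads between them. Of the 31-base sequences of HLA-B transcripts, 36.8% occur in another annotated gene and 6.07% in another of the 4 heavy chain genes, whereas these shares were 15.9% and 12.1% for HLA-C, 10.7% and 3.77% for HLA-E and 3.61% and 1.62% for HLA-F. Levels of single heavy chain genes are therefore uncertain, also because the reads were assigned to reference alleles.

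Between LSD1 KO and WT cells, none of the 9 class I genes had a q value under 0.1 in edgeR's quasi-likelihood test, and none had an unadjusted p under 0.05. All 9 passed the filter on low counts. Over all 17672 genes tested, 1 gene, KDM1A, was called (0.00566%) and 3.12% had an unadjusted p under 0.05. With the replicate block, 1.6% of all genes were called, 1.05% as higher and 0.549% as lower in LSD1 KO, and 0 of the 9 class I genes were called. In that fit 1 of the 9, HLA-E, had an unadjusted p under 0.05, against 13.4% of all genes. The log2 fold changes of the 9 genes had a median of 0.105 without the block and 0.108 with it, beside 0.001 and 0.003 for all genes tested, and 6 of the 9 were positive. DESeq2's Wald test without the block called 95 genes, 0.376% of those it tested, and none of the 9 class I genes. In no class I gene were the groups without overlap, a pattern seen in 7.74% of all genes. In whole cultures, fewer cells with a transcript and less transcript per cell cannot be told apart.

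**Figure D2:**
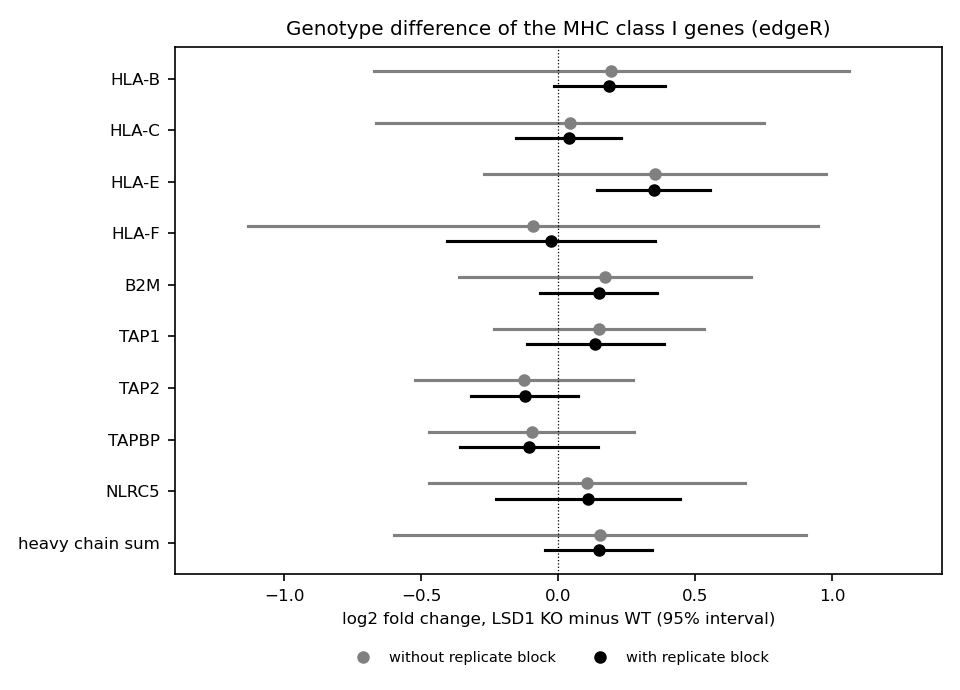
Log2 fold change of each class I gene and of the summed heavy chain counts, LSD1 KO minus WT, with its 95% interval from edgeR without the replicate block (gray) and with it (black). All intervals without the block include 0, and with the block the interval of HLA-E, from 0.142 to 0.553, does not.

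HLA-B was at 147, 349 and 241 CPM in WT replicates 1, 2 and 3 and at 174, 418 and 250 CPM in LSD1 KO. The groups overlapped throughout, and each LSD1 KO library was above the WT library of the same number. Its log2 fold change was 0.19 (standard error 0.38, 95% interval -0.675 to 1.06) without the block and 0.19 (95% interval -0.017 to 0.388) with it. HLA-C, the other classical heavy chain gene, was at 250, 485 and 345 CPM in WT and at 262, 516 and 335 CPM in LSD1 KO. Its log2 fold change was 0.04 (95% interval -0.154 to 0.23 with the block), and pair 3 went the other way. HLA-F was the lowest heavy chain gene, at 6.35, 21.8 and 13.1 CPM in WT and at 8.55, 19.5 and 10.6 CPM in LSD1 KO. Its log2 difference within pairs was 0.43 in pair 1, -0.16 in pair 2 and -0.30 in pair 3, and its interval was the widest of the 9, from -1.13 to 0.95 without the block.

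HLA-E, the ligand of NKG2A receptors, had the largest log2 fold change of the 9 genes. It was at 103, 181 and 137 CPM in WT and at 137, 242 and 158 CPM in LSD1 KO. Each LSD1 KO library was above the WT library of the same number, by 0.42, 0.42 and 0.21 on the log2 scale, although WT replicate 2 was above LSD1 KO replicates 1 and 3. HLA-B and B2M were also higher in all 3 pairs, as were 18.8% of all genes. In edgeR without the block HLA-E had a q value of 0.999 at a log2 fold change of 0.35 (standard error 0.27), and the two-sided exact permutation test gave p = 0.4. The block lowered the standard error to 0.089 at the same fold change, and the q value of 0.153 did not pass the threshold. DESeq2 with the replicate block gave 0.34 and a q value of 0.0477, the only call of a class I gene under the 18 alternatives, in a fit where 2.53% of the genes tested were called as higher. In edgeR with the block and a correction for transcript length and GC content, the q value of HLA-E was 0.102, and over the 18 alternatives it ranged from 0.0477 to 1. Without LSD1 KO replicate 2 the log2 fold change was 0.06, and without WT replicate 2 it was 0.58.

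Because the heavy chain genes share reads, their counts were also summed and tested as 1 gene. The summed level was 506, 1040 and 736 CPM in WT and 582, 1200 and 753 CPM in LSD1 KO, and each LSD1 KO library was above its WT partner. The log2 fold change of the sum was 0.15 (95% interval -0.602 to 0.904, q value 0.999 from edgeR) without the block and 0.15 (95% interval -0.05 to 0.343, q value 0.513) with it. The sum without LSD1 KO replicate 2 had a log2 fold change of -0.21, and without WT replicate 1 it was -0.07.

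**Figure D3:**
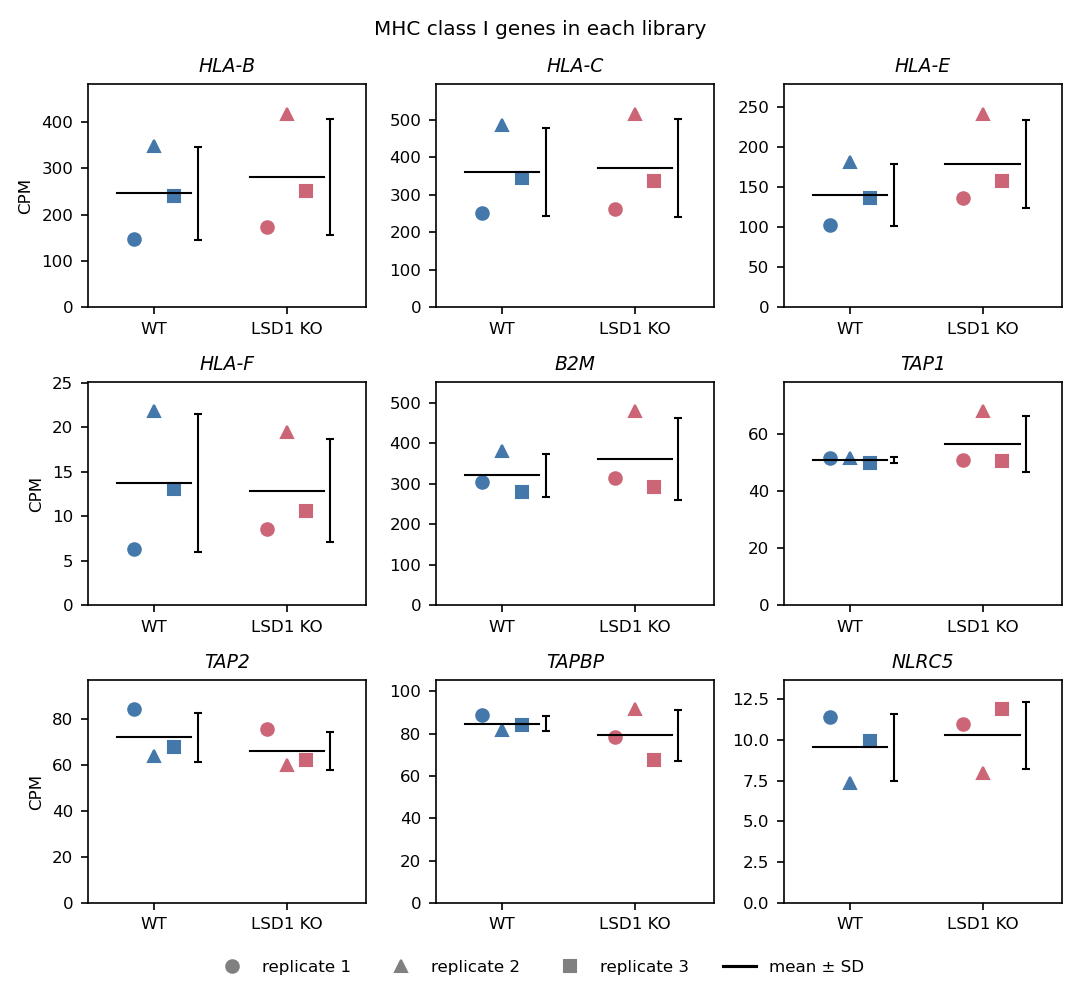
CPM of each class I gene in the 3 WT and 3 LSD1 KO libraries, with the mean and SD of each group and a marker shape for each replicate number. The 4 heavy chain genes are highest in replicate 2 and lowest in replicate 1 of both groups, TAP2 and NLRC5 are lowest in replicate 2 of both groups, and the groups overlap in every panel.

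B2M, the light chain shared by all class I molecules, was at 304, 381 and 279 CPM in WT and at 313, 479 and 292 CPM in LSD1 KO. Its log2 fold change was 0.17 (95% interval -0.363 to 0.704) without the block and 0.15 (95% interval -0.067 to 0.361) with it. The difference lay mostly in pair 2, with 0.33 on the log2 scale against 0.04 in pair 1 and 0.07 in pair 3.

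TAP1, a subunit of the peptide transporter, was at 51.6, 51.7 and 49.9 CPM in WT, a range of 3 close values, and at 51.1, 68.1 and 50.7 CPM in LSD1 KO. LSD1 KO replicate 2 stood alone, and the pair differences were -0.02, 0.40 and 0.02 on the log2 scale. TAP2, the other transporter subunit, was at 84.1, 63.9 and 67.5 CPM in WT and at 75.3, 60 and 62.2 CPM in LSD1 KO. It was lower in LSD1 KO in all 3 pairs, by 0.16, 0.09 and 0.12 on the log2 scale, which 17.5% of all genes also were, and its log2 fold change with the block was -0.12 (95% interval -0.319 to 0.073, q value 0.585 from edgeR). TAPBP, which encodes tapasin, was at 88.6, 81.9 and 83.9 CPM in WT and at 78.6, 91.6 and 67.5 CPM in LSD1 KO (log2 fold change -0.10, 95% interval -0.472 to 0.276). LSD1 KO replicates 1 and 3 lay below all WT libraries and replicate 2 lay above them.

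NLRC5 was the lowest of the 9 genes per kilobase, whereas in CPM HLA-F was lower in 3 of 6 libraries. It was at 11.4, 7.34 and 9.94 CPM in WT and at 11, 7.99 and 11.9 CPM in LSD1 KO, which corresponds to 194 to 313 counts per library. Its log2 fold change was 0.11 (95% interval -0.471 to 0.68) without the block and 0.11 (95% interval -0.227 to 0.443) with it, and the groups overlapped.

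All 4 heavy chain genes had the same order of libraries in both groups, with replicate 2 highest, replicate 3 in the middle and replicate 1 lowest, which 12.5% of all genes tested also showed. From replicate 1 to replicate 2, HLA-B was 2.38-fold higher in WT and 2.41-fold in LSD1 KO. The ratios were 1.93 and 1.97 for HLA-C, 1.76 and 1.76 for HLA-E and 3.44 and 2.28 for HLA-F. A ratio of at least 1.5 in both groups was found for these 4 of the 9 class I genes and for 10.3% of all genes. The SD of log2 CPM within WT was 0.63 for HLA-B, 0.48 for HLA-C, 0.41 for HLA-E and 0.89 for HLA-F, against a median of 0.298 over all genes. Replicate 2 was also highest in both groups for B2M, and for TAP1, where WT replicates 1 and 2 nearly coincided. It was thus highest in both groups for 6 of the 9 genes, as for 25.1% of all genes. TAP2 and NLRC5 went the opposite way. Replicate 2 was their lowest library in both groups, as in 26% of all genes, with ratios of replicate 2 to replicate 1 of 0.760 and 0.796 for TAP2 and of 0.644 and 0.726 for NLRC5. The order of NLRC5 over libraries was thus not that of the heavy chain genes. PSMB9, which shares the divergent promoter with TAP1, followed the library order of the heavy chain genes, from 7.56 to 14.6 CPM between WT replicates 1 and 2 and from 6.58 to 18.5 CPM in LSD1 KO.

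The replicate 2 values were also set against transcript length and GC content. The log2 level in replicate 2 minus the mean of replicates 1 and 3, averaged over both groups, had a median of 0.34 over the 2704 genes with at least 60% GC and of -0.11 over the 2779 genes under 40%. It was 0.25 over genes with transcripts from 1000 to 2000 bases and -0.27 over genes with at least 5000 bases. The heavy chain transcripts have 1480 to 2548 bases and 55.1% to 60.1% GC, and their replicate 2 differences were 0.95 for HLA-B, 0.76 for HLA-C, 0.66 for HLA-E and 1.14 for HLA-F. B2M, with 943 bases and 39.1% GC, had 0.53. NLRC5, with 6781 bases and 58% GC, had -0.52, and TAP2, with 5643 bases and 48.9% GC, had -0.21. After length and GC content were fitted in each library, the difference was 0.71 for HLA-B, 0.48 for HLA-C, 0.61 for HLA-E, 0.93 for HLA-F and 0.51 for B2M, above the upper quartile of all genes, 0.31. It was 0.06 for TAP2 and -0.40 for NLRC5 after this fit.

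**Figure D4:**
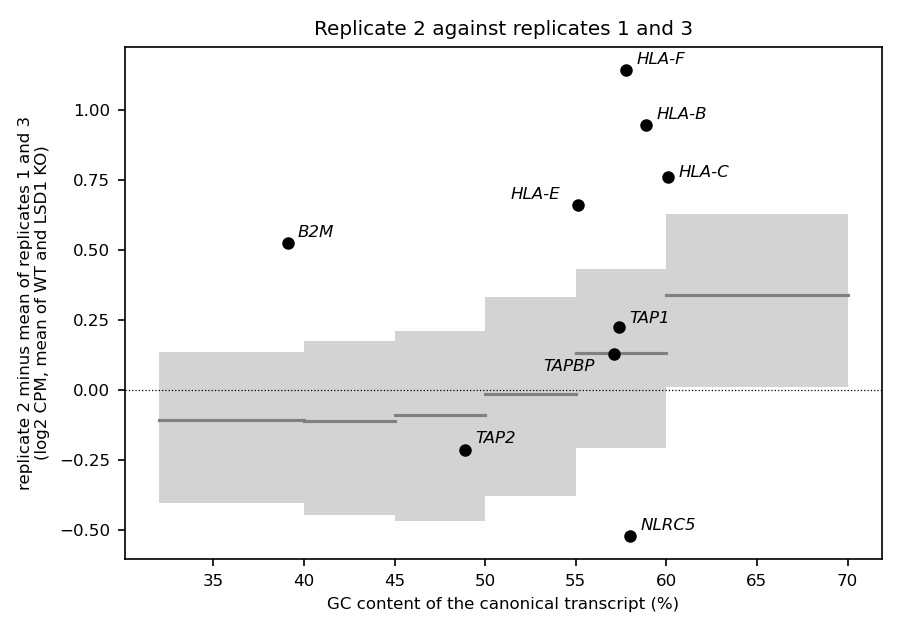
Level in replicate 2 minus the mean of replicates 1 and 3 (log2 CPM, averaged over WT and LSD1 KO) of the 9 class I genes against the GC content of the canonical transcript in percent. Gray lines and bands give the median and the quartiles of all tested genes in each GC range, and the 4 heavy chain genes and B2M lie above the band while NLRC5, at -0.52, lies below it.

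The other genes of the pathway were taken from lists of their roles. Of the 5 immunoproteasome and PA28 genes, which shape the peptides cut for class I, 4 were tested and none was called with or without the block. PSMB8 was below the filter with 8 to 25 counts per library. PSMB10 had a log2 fold change of -0.28 and pair differences of 0.41, -0.73 and -0.41, and PSME1, a PA28 subunit gene, had 0.05. None of the 5 genes listed with the constitutive proteasome was called. Among them, PSME3, an activator gene and not a subunit gene, and PSMB6 had log2 fold changes of -0.28 and -0.24. With 1 library left out these ranged from -0.575 to -0.096 and from -0.419 to -0.016. Of the 8 genes for folding, loading and trimming in the endoplasmic reticulum, 0 were called in edgeR with or without the block, and 4 were lower in LSD1 KO in all 3 pairs, as were 17.5% of all genes. Without pair 2 the block called 3 of the 8, in a fit that called 1055 genes in all, against 282 with all pairs. CALR, which encodes calreticulin, was at 960, 908 and 726 CPM in WT and at 828, 730 and 590 CPM in LSD1 KO. PDIA3, its partner ERp57, was at 498, 608 and 483 CPM in WT and at 382, 532 and 399 CPM in LSD1 KO. The groups overlapped in both genes, and the q values with the block were 0.201 for CALR and 0.206 for PDIA3 from edgeR. DESeq2 with the block called both as lower, with q values of 0.0667 and 0.0752, and called 4.21% of all genes it tested.

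Of 12 factors that act on class I promoters, 0 were called, and the median log2 fold change was -0.036. RFX5 and RFXAP, both subunits of the RFX complex that NLRC5 works with, were the 2 of 12 factors whose groups did not overlap, in opposite directions, as the groups did not in 7.74% of all genes. RFX5 was at 45.3, 39.3 and 43.5 CPM in WT and at 52.6, 45.8 and 47.1 CPM in LSD1 KO, and RFXAP was at 6.04, 6.25 and 6.83 CPM in WT and at 5.90, 4.68 and 5.15 CPM in LSD1 KO. The exact permutation test gave p = 0.1 for each, the smallest p that 3 libraries against 3 allow. The interferon-response factor gene IRF1 had a log2 fold change of -0.03. None of the 6 genes listed under cytosolic peptidases was called, BLMH and THOP1 having log2 fold changes of -0.14 and -0.17. None of the 7 negative regulators of surface class I was called with or without the block. The block without pair 2 called 1 of them, in a fit that called 1055 genes in all. Among the negative regulators, MARCHF4, a ubiquitin ligase gene read with 6 to 31 counts per library, had -0.88 and TMEM127 had -0.09. Of the 11 class I-like molecules and NKG2D ligands, 8 were tested and none was called, with log2 fold changes of 0.42 for MR1 and 0.37 for ULBP2. With 1 library left out these ranged from 0.118 to 0.624 and from 0.019 to 0.604.

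**Figure D5:**
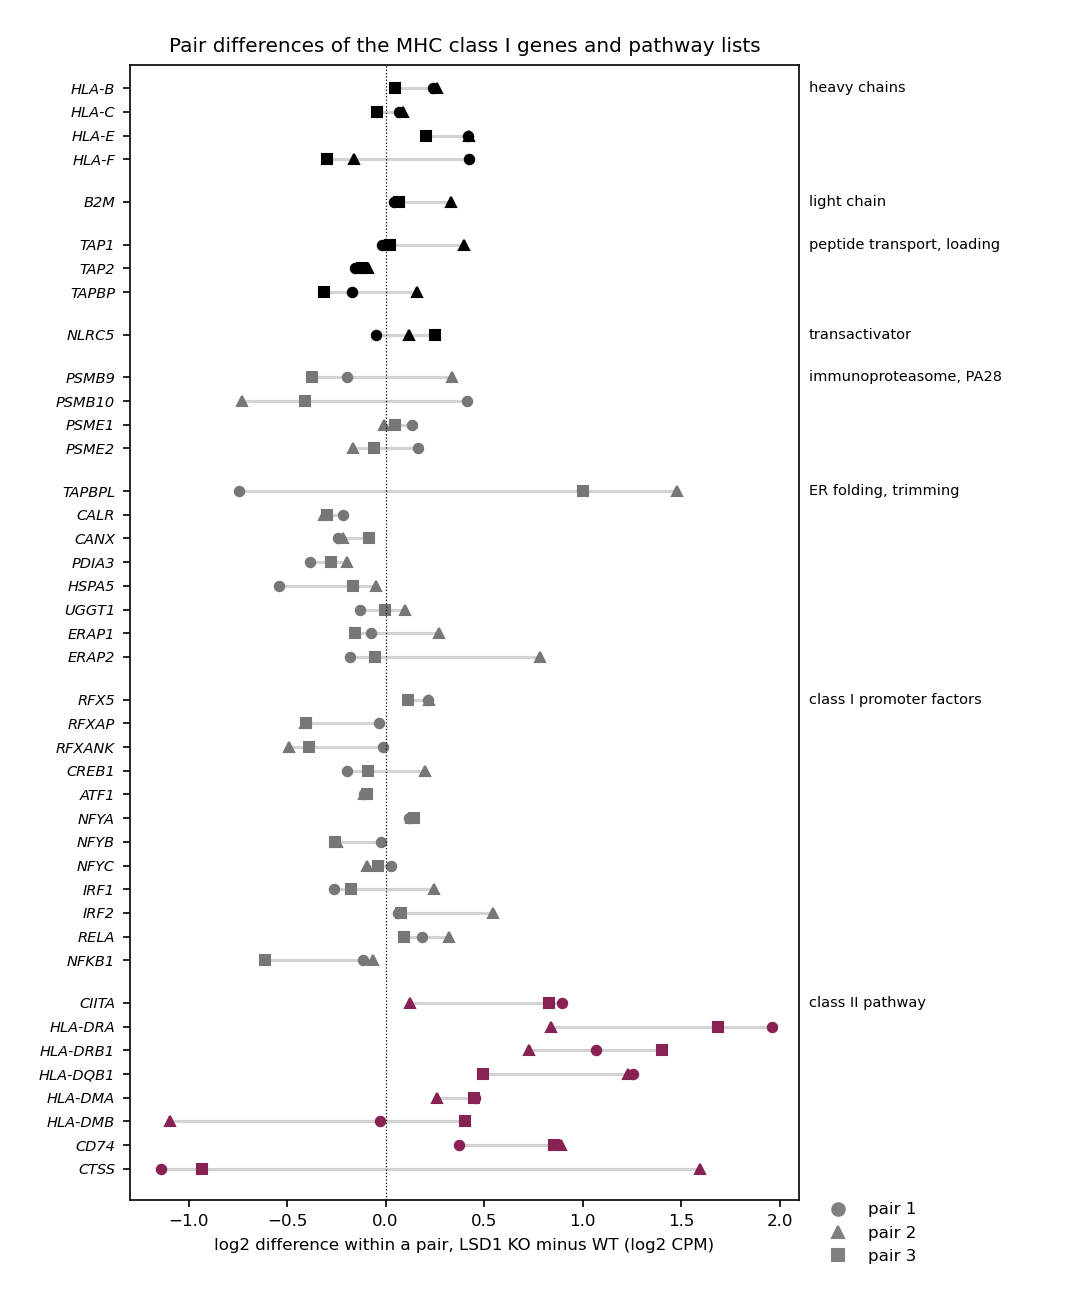
Log2 difference between the LSD1 KO and the WT library of the same replicate number (log2 CPM) for the tested class I genes (black), 3 pathway lists (gray) and the class II pathway (purple), with a marker for each pair. Most genes lie on both sides of 0 or near it, and HLA-DRA, from 0.84 to 1.96, reaches the largest difference.

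The class II genes, which present peptides to CD4+ T cells and share the RFX and NF-Y factors with class I, were read at low levels. Of 11 class II genes, 8 were tested, with a median log2 fold change of 0.737 beside 0.105 for the class I genes. In all 3 pairs, 6 of the 8 were higher in LSD1 KO, as were 18.8% of all genes. HLA-DRA, the alpha chain of HLA-DR, was at 1.02, 3.26 and 2.32 CPM in WT and at 4.18, 5.89 and 7.65 CPM in LSD1 KO, so that every LSD1 KO library was above every WT library, as in 4.23% of all genes. It was not called without the block (log2 fold change 1.42, standard error 0.44, q value 0.999 from edgeR). It was called with the block (log2 fold change 1.5, q value 0.0533 from edgeR), and in 5 of the 18 alternatives, that one included. With the block and without pair 3 it was not called (log2 fold change 1.4, q value 0.122 from edgeR). HLA-DRB1 and HLA-DQB1 had log2 fold changes with the block of 1.09 and 1.00 and q values of 0.117 and 0.124 from edgeR. DESeq2 with the block called HLA-DRA and HLA-DQB1 (q values 0.00193 and 0.0726), in a fit where 2.53% of the genes tested were called as higher. In edgeR with the block but without pair 2, 3 class II genes were called, in a fit that called 1055 genes in all. CIITA, the class II counterpart of NLRC5, was at 2.98, 2.76 and 3.18 CPM in WT and at 5.61, 3.02 and 5.72 CPM in LSD1 KO (q value 0.288 with the block). HLA-DRA counts were low, from 27 to 202 per library. Among the leukocyte markers, ITGAX moved with these genes, from 1.28, 2.65 and 2.92 CPM in WT to 3.68, 6.08 and 8.82 CPM in LSD1 KO. Its q value from edgeR was 0.999 without the block and 0.0251 with it, in a fit that called 1.05% of all genes as higher. PTPRC, CD3E and CD2 had 0 to 3 counts in every library. LYZ was also higher in all 3 pairs, at 1.1, 0.757 and 1.03 CPM in WT and 1.29, 0.958 and 1.82 CPM in LSD1 KO (q value 0.597 with the block). No other leukocyte marker had more than 8 counts in a library. The fibroblast marker COL1A1 was at 20.4, 23.8 and 23.9 CPM in WT and at 30.1, 33.2 and 34 CPM in LSD1 KO. It was called with the block (q value 0.0628 from edgeR) and not without it (q value 0.999). Of the epithelial markers, EPCAM and KRT18 were lower in every LSD1 KO library than in any WT library, whereas KRT19 was higher in all 3 pairs. The part of such markers in the result was not tested. Whether the difference of HLA-DRA from the class I genes exceeds the spread between libraries was not tested.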

How the data were processed

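RNA from HCT116 cells was read in 3 libraries of each genotype. The authors trimmed the read pairs with Trimmomatic 0.39 (FastQC for quality), quantified them with Salmon 1.4.0, per the submitters' processing notes, with GENCODE transcripts (GRCh38) as the reference, and deposited expected counts per gene as whole numbers, not scaled to library size. The step from transcripts to genes is not given in the sources used here. Floors and intervals of counts cover counting error only. A count of 3 corresponded to between 0.103 and 0.118 CPM.

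Counts were compared with edgeR 4.0.16 in R 4.3.3 (TMM, filterByExpr by group, quasi-likelihood test, Benjamini-Hochberg over all 17672 genes tested, q value under 0.1), without and with the replicate number as a block, and with DESeq2 1.42.0, the tool of the paper. The log2 CPM values used a prior count of 2. The replicate numbers were taken to pair the libraries, because each same-numbered pair of libraries deviated from its group means with Pearson's r of 0.553, 0.553 and 0.404 for numbers 1, 2 and 3, over 17672 genes, which are not independent replicates. The length and GC correction fitted splines with 5 degrees of freedom on canonical transcripts of GENCODE v44lift37, known for 98.8% of the genes tested. That annotation is on GRCh37, and only lengths and sequence content were taken from it. Gene and promoter positions are from RefSeq on GRCh38.p14. Symbols were matched for 58395 of 60240 rows. The steps were tested on simulated data.

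The genes and lists were chosen with earlier results of these data known. The text names the 9 class I genes, KDM1A, list genes called with or without the block, otherwise the 2 with the smallest p in each list, and the 3 genes with the nearest profile. PSMB8, PSMB9, IRF1, CIITA, HLA-DRB1, HLA-DQB1, HLA-G, HLA-H, HLA-P, HLA-U, ITGAX and the markers were named after their values were seen. The alternatives were RLE and upper-quartile factors, other filters, DESeq2, the block in both tools and leaving out each library. The block without each pair and the length and GC correction were added after seeing the data. From the list of promoter factors, 1 gene is not reported here.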

Additional observations from a re-analysis of the deposited data

How the results depend on the processing

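The number of genes called, 1 without the block, was 1 with RLE or upper-quartile factors and with at least 10 counts in every library. It was 114 when every gene with a total count above 0 was kept, 95 with DESeq2's Wald test, 282 with the replicate block in edgeR and 597 with the replicate block in DESeq2. Added settings gave 428, 1055 and 198 genes with the replicate block without pair 1, 2 and 3, 4 with length and GC content corrected and 412 with this correction and the replicate block. Leaving out 1 library gave 1 to 26 genes, the 26 without LSD1 KO replicate 2. KDM1A stayed called in each, with log2 fold changes from -3.01 to -2.95 when 1 library was left out.

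The number of the 9 class I genes called was 0 in 17 of the 18 alternatives and 1 with the replicate block in DESeq2, where HLA-E (log2 fold change 0.344, q value 0.0477) was called. Of 162 values of class I genes under these alternatives, 17 had the opposite sign, 13 of them with 1 library left out. The others came from the replicate block without pair 2, where HLA-C was -0.007, HLA-F 0.025 and TAP1 -0.015, and without pair 3, where HLA-F was 0.122. HLA-J was -0.035 without pair 2. The replicate block changed no other call among the class I genes.

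With 1 library left out, the log2 fold change ranged from -0.232 to 0.53 for HLA-B, from -0.289 to 0.314 for HLA-C, from 0.056 to 0.575 for HLA-E and from -0.541 to 0.405 for HLA-F. It ranged from -0.103 to 0.308 for B2M, from -0.024 to 0.224 for TAP1, from -0.233 to 0.002 for TAP2, from -0.232 to 0.006 for TAPBP and from -0.062 to 0.25 for NLRC5. The range was -0.205 to 0.438 for the heavy chain sum, -0.462 to 0.101 for PSMB10, -0.106 to 0.232 for PSME1, -0.254 to 0.003 for THOP1, -0.098 to 0.69 for HLA-J and -0.354 to 0.191 for HLA-V. Without WT replicate 1, HLA-B was -0.073, HLA-C -0.162, TAP2 0.002 and the sum -0.072. Without WT replicate 2, HLA-F was 0.405 and NLRC5 -0.062. Without LSD1 KO replicate 1, HLA-F was 0.132. Without LSD1 KO replicate 2, HLA-B was -0.232, HLA-C -0.289, B2M -0.103, TAP1 -0.024 and the sum -0.205. Without LSD1 KO replicate 3, HLA-F was 0.035, TAPBP 0.006 and NLRC5 -0.012. Of the lists, only the endoplasmic reticulum, class II and negative regulator lists had another number of calls under any alternative. Their numbers reached 3, 3 and 1, each with the replicate block without pair 2, which called 1055 genes in all. The causes were not tested.

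With 3 libraries in a group, the median 95% interval of a log2 fold change spanned 1.19 over all genes without the block, so changes of the size seen for the class I genes were not detectable in that fit.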

Other observations

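Class I pseudogenes were read at low levels. Of 9 listed, 4 were tested and none was called. HLA-H had 103, 215 and 133 counts in the WT replicates. In LSD1 KO it had 98, 235 and 130, an order of libraries that the heavy chain genes and 12.5% of all genes also had. HLA-V was lowest in replicate 2 of both groups, with 1.89, 1.1 and 1.99 CPM in WT and 1.68, 0.921 and 2.16 CPM in LSD1 KO. HLA-J and HLA-V had log2 fold changes of 0.23 and -0.07, and HLA-P and HLA-U had 0 counts in all 6 libraries. HLA-G, a heavy chain gene of the placenta, had 0 to 5 counts per library. Adding the pseudogenes and HLA-G to the heavy chain sum left its log2 fold change at 0.15.

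Outside the class I genes, the genes with a mean of at least 10 CPM whose profile over the 6 libraries lay nearest to the mean profile of the 9 class I genes were BTN2A1, GRN and SLC35E4, with root mean square differences of 0.034, 0.0359 and 0.0376 on the log2 scale. The same distance of the class I genes from their own mean profile ran from 0.133 for B2M to 0.454 for NLRC5. BTN2A1, GRN and SLC35E4 were picked for the smallest distances among all such genes, whereas the 9 class I genes were not picked by distance. The mean profile also averages the heavy chain genes with TAP2 and NLRC5, which went the opposite way over the libraries. These distances therefore cannot show which genes follow the class I genes more closely.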
